A study of Mus musculus with 1790 samples.

Results

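Within a droplet library of the mouse embryonic preoptic area (POA), the cells described here carried at least 2 unique molecular identifiers (UMIs, each standing for 1 captured mRNA molecule) of Htr3a and no UMI of Hmx2 or Hmx3. There were 161 of them among 2106 cells, or 7.64% (95% interval 6.55 to 8.86). They are called Htr3a cells without Hmx UMIs below. They were set against 393 cells with at least 1 UMI of Hmx2 or Hmx3, called Hmx cells, and against 1370 cells without a UMI of any of the 3 genes. The remaining 182 cells had 1 Htr3a UMI and no Hmx UMI, and belonged to none of these groups. The groups were selected on the UMIs of Htr3a, Hmx2 and Hmx3, so the levels of these 3 genes are given as a description.

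The study followed the origin of cortical neurogliaform cells. All cells came from wild-type C57BL/6 embryos at E14.5 without treatment, from microdissected POA that was dissociated with trypsin, run unsorted in droplets on a 10x Chromium controller. The labels and the droplet methods name C57BL/6, while the methods on mice name CD1 for droplet work. A library of the caudal ganglionic eminence (CGE) was made from embryos of the same age and genotype. Each region was 1 library, so there were no replicates. No embryo was named, no test was run, and a 2-fold difference is a size and not a call of significance.

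Htr3a encodes a subunit of the ionotropic serotonin receptor and marks a large class of cortical interneurons. The CGE is their main embryonic source and the POA a smaller one. Hmx2 and Hmx3 are neighbouring homeobox genes, and in the POA Hmx3 is used to mark a lineage of interneuron precursors. Interneurons of the neighbouring medial ganglionic eminence (MGE) are known for Nkx2-1, which most of them switch off after they leave, and for its target Lhx6. Sox6 and Satb1 act downstream of Lhx6 in their maturation. The POA also makes hypothalamic neurons, among them glutamatergic ones, and the authors had removed clusters of glutamatergic cells before deposit.

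Among the 161 Htr3a cells without Hmx UMIs, 56 had 2 Htr3a UMIs, 28 had 3, 17 had 4, 10 had 5, 22 had 6 to 10 and 28 had over 10, with a median of 3 and a highest value of 91. Just outside the limit lay the 182 cells with 1 UMI. In the whole library 203 cells had 2 or more Htr3a UMIs, and 79.3% of these (73.1 to 84.7) had no Hmx UMI. Of the Hmx cells, 183 had Hmx2 only, 59 Hmx3 only and 151 both. Htr3a was not seen in 303 of them, was seen once in 48, and had 2 or more UMIs in 42. The absence of a UMI was a weak sign. When each cell was thinned at random to 3900 UMIs, 141 of the 393 Hmx cells (35.9%, 31.1 to 40.8) no longer showed an Hmx UMI, and 78 of the 161 Htr3a cells no longer reached 2 Htr3a UMIs. Cells with undetected Hmx2 or Hmx3 can therefore stand among the 161.

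Htr3a cells without Hmx UMIs held 4029 to 65782 UMIs (median 8853) and summed to 2249375. Hmx cells had a median of 9785 and cells without the 3 genes 7057, with sums of 5559208 and 11962112. Cells over 2 times the library median, which is to say over 15148 UMIs, made up 30.4%, 31.6% and 8.54% of the groups and held 61.9%, 60.2% and 22.3% of their UMIs. No doublet caller was run, and whether these deep cells hold RNA of more than 1 cell was not tested. Shares of cells with a UMI are therefore given after thinning every cell to 3900 UMIs, a depth that all 2106 cells reached. Levels are CPM, a gene's share of a group's summed UMIs scaled to the usual common total. Intervals are exact at 95% and cover counting error only. The methods give more recovered cells for the POA library than for the CGE library, while the files hold 2106 and 4115. By content, 393 cells of the POA library and 7 of the CGE library had an Hmx UMI, and the names were used as given. Between the libraries 12 cell barcodes were shared, 0 of them among the 161 cells.

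Cells were called post-mitotic GABAergic-like when the neuronal genes Stmn2, Tubb3, Dcx, Dlx6, Dlx5, Gad2 and Gad1 together had more UMIs than Nes, Hes1, Hes5, Sox9, Fabp7, Mki67 and Top2a. This held for 146 of the 161 cells (90.7%, 85.1 to 94.7), for 365 of 393 Hmx cells (92.9%) and for 901 of 1370 cells without the 3 genes (65.8%). Only 4 of the 161 cells lay within 3 UMIs of the limit. The name describes this rule and not a tested state. In the 146 cells Tubb3 and Stmn2 were at 3030 and 1213 CPM, beside 184 CPM for Gad2 and 69.0 CPM for Gad1. These cells also held Top2a at 178 CPM and the glutamatergic-lineage gene Neurog2 at 182 CPM. Cycling or glutamatergic cells can therefore stand among those called post-mitotic below. Every one of the 161 cells had a UMI of at least 1 list of markers of other cells. Red blood cell markers gave 1269 UMIs in 158 cells (98.1%), and a UMI in 90.7% after thinning, beside 91.6% of Hmx cells and 93.9% of cells without the 3 genes. Immune markers gave 12 UMIs in 11 of the 161 cells, with Csf1r, Aif1, Ptprc and P2ry12 at 0. Vascular markers gave 47 UMIs in 35 cells, with Flt1, Esam and Kcnj8 at 0, and oligodendrocyte precursor markers gave 67 UMIs in 33 cells, with Sox10 at 0. The 9 glutamatergic genes summed to 369 CPM in the Htr3a cells, 267 CPM in Hmx cells and 248 CPM in cells without the 3 genes, with Slc17a7 at 0 in the first. After thinning, 41.0%, 38.2% and 33.3% of the cells had a UMI of that list. Cajal-Retzius markers summed to 495, 418 and 309 CPM, with the defining gene Trp73 at 0 in the Htr3a cells, and cholinergic markers to 136, 225 and 206 CPM.

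Compared with Hmx cells, Htr3a cells without Hmx UMIs were higher in Lgi1, Npy and Lhx6, and in a group of genes at smaller distances that included Sox6, Nxph1, Satb1, Tcf4 and Nfib. They were lower in Zcchc12, Peg3, Bub3 and Scg2, and at a smaller distance in Isl1. Of 3572 genes at 50 CPM or more in either group, 7 were at least 2-fold higher (0.196%) and 13 at least 2-fold lower (0.364%), after adding 10 CPM to both levels. The median difference over all genes was 0.01 on the log2 scale. With each cell given the same weight, by the mean CPM of single cells, the counts were 35 (0.977%) and 25 (0.698%) of 3581 genes, more than by summed levels, to which deep cells add most.

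Lhx6, the LIM homeodomain factor of the MGE lineage, was at 105 CPM (92.4 to 119.7) in Htr3a cells without Hmx UMIs and at 45.9 CPM (40.4 to 51.9) in Hmx cells, with a log2 difference of 1.05. Thinned shares were 34.2% (26.9 to 42.0) and 10.7% (7.81 to 14.2), against 18.6% (16.2 to 21.4) in post-mitotic cells without the 3 genes. In their progenitor-like cells, which should express little of it and had a median of 7371 UMIs before thinning, the share was 6.29%. Its downstream factor Sox6, an SRY-box factor, had levels of 92.0 CPM (79.9 to 105) and 46.6 CPM (41.1 to 52.6), and 32.3% against 11.2% of the thinned cells had a UMI. Nxph1, a secreted ligand of neurexins that MGE-derived interneurons express, was seen in 25.5% (18.9 to 32.9) of the Htr3a cells and 9.92% (7.15 to 13.3) of the Hmx cells. For Satb1, a chromatin organiser that promotes the maturation of MGE interneurons, the shares were 31.7% and 13.0%. Nkx2-1 itself did not separate the groups, with 359 CPM (335 to 385) and 350 CPM (334 to 366) and shares of 66.5% and 63.9%.

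The largest log2 difference upward, 1.65, belonged to Lgi1, which encodes a secreted synaptic protein linked to epilepsy and lay under the level at which genes were named by rule. It was picked out after its values were seen. Lgi1 was at 56.9 CPM (47.5 to 67.7) in Htr3a cells without Hmx UMIs, 11.3 CPM (8.71 to 14.499) in Hmx cells and 10.5 CPM (8.36 to 13.0) in post-mitotic cells without the 3 genes. Its thinned shares were 20.5% (14.55 to 27.6), 3.05% (1.59 to 5.27) and 2.66% (1.71 to 3.94), and it was seen in 0.651% of the progenitor-like cells. No cell held over 8 of its 128 UMIs in the Htr3a cells. By the number of Htr3a UMIs, Lgi1 was seen in 1.97% of the thinned cells with none, 7.69% with 1, 5.36% with 2, 27.3% with 3 to 5 and 30.0% with over 5. Thus the members with 2 Htr3a UMIs were near the cells with 1, and the members above carried most of the Lgi1. The 42 Hmx cells with 2 or more Htr3a UMIs were at 25.2 CPM (16.3 to 37.2). Arl4d, a small GTPase also picked out after its values were seen, was the only other gene 2-fold higher outside the rule, with 51.6 CPM (42.6 to 61.9) and 17.6 CPM (14.3 to 21.5) in the Htr3a and Hmx cells.

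Npy, the neuropeptide that many neurogliaform cells make later in life, had a log2 difference of 1.30, from levels of 125 CPM (111 to 141) and 45.0 CPM (39.6 to 50.9). A single cell held 28 of its UMIs (9.93%). The thinned shares were 19.9% (14.0 to 26.9) and 9.41% (6.72 to 12.7), and their intervals met. Sst, the gene of the peptide somatostatin, also passed 2-fold with 65.4 CPM against 27.2 CPM, but 1 cell held 96 of its UMIs, or 65.3%, and only 16 of the 161 cells had any. Its thinned shares were 4.97% and 5.34%. The summed level of Sst thus rested mainly on 1 cell, while that of Npy came from 50 of the 161 cells.

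Tcf4, a broadly expressed bHLH partner, reached 761 CPM (726 to 798) in the Htr3a cells and 407 CPM (391 to 424) in the Hmx cells, and Nfib, a nuclear factor I protein of differentiating neurons and glia, 554 CPM (523 to 585) and 329 CPM (314 to 344). Both were seen in most Htr3a cells after thinning, with 85.1% and 78.9%, against 60.1% and 49.4% of the Hmx cells. Etv1, an ETS factor found in several interneuron precursors, had 58.2 CPM (48.7 to 69.1) and 23.9 CPM (20.0 to 28.4). The enzymes that make GABA followed the same direction. Gad1 was seen in 28.6% (21.7 to 36.2) against 13.0% (9.82 to 16.7) of the thinned cells and Gad2 in 46.0% (38.1 to 54.0) against 34.6% (29.9 to 39.5). The intervals of Gad2 overlapped.

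In the opposite direction, Zcchc12, a zinc-finger coactivator of the forebrain and hypothalamus, was at 130 CPM (115 to 146) in Htr3a cells without Hmx UMIs and 324 CPM (309 to 339) in Hmx cells, a log2 difference of -1.26. Peg3, an imprinted zinc-finger gene, had 269 CPM (248 to 292) beside 597 CPM (577 to 618), and Scg2, a granin of secretory vesicles, 33.3 CPM (26.2 to 41.8) beside 80.8 CPM (73.5 to 88.6). Usp29, the gene that starts beside Peg3 on the opposite strand of chromosome 7 and is imprinted with it, was picked out after its values were seen. It had 114 CPM (101 to 129) in the Htr3a cells and 240.0 CPM (227 to 253) in the Hmx cells, where the log2 difference was -1.01. Isl1, a LIM homeodomain factor of hypothalamic, cholinergic and striatal neurons, was seen in 17.4% (11.9 to 24.1) and 42.0% (37.0 to 47.0) of the thinned cells. Zic1, a zinc-finger factor of the septum and POA, stood at 132 CPM (118 to 148) beside 208 CPM (197 to 221), short of 2-fold. Tox2, an HMG-box gene, stood at 32.9 CPM (25.8 to 41.3) beside 60.3 CPM (54.0 to 67.1), and its thinned shares of 15.5% and 20.9% had overlapping intervals.

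Bub3, which encodes a protein of the spindle checkpoint, had 208 CPM (189 to 227) in the Htr3a cells and 474 CPM (456 to 493) in the Hmx cells, a log2 difference of -1.15. Cells without the 3 genes were at 271 CPM, and at 237 CPM (226 to 248) when only post-mitotic ones were counted. The level in the Hmx cells was thus the one that stood apart. In the cell-cycle list, 10 of the 11 members that were measured lay above 0, and none was 2-fold apart. Their median was 0.64, beside 0.01 for all genes. Whether the level of Bub3 is tied to the cell cycle was not tested. In the GENCODE M21 annotation of mm10, Bub3 is the gene that follows Hmx2 on the plus strand of chromosome 7. Hmx3 runs from 131542867 to 131544925, Hmx2 from 131548773 to 131558014 and Bub3 from 131560222 to 131571895, which leaves 2208 bases between Hmx2 and Bub3. Whether reads of Hmx2 and Bub3 transcripts were assigned apart was not tested.

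**Figure D1:**
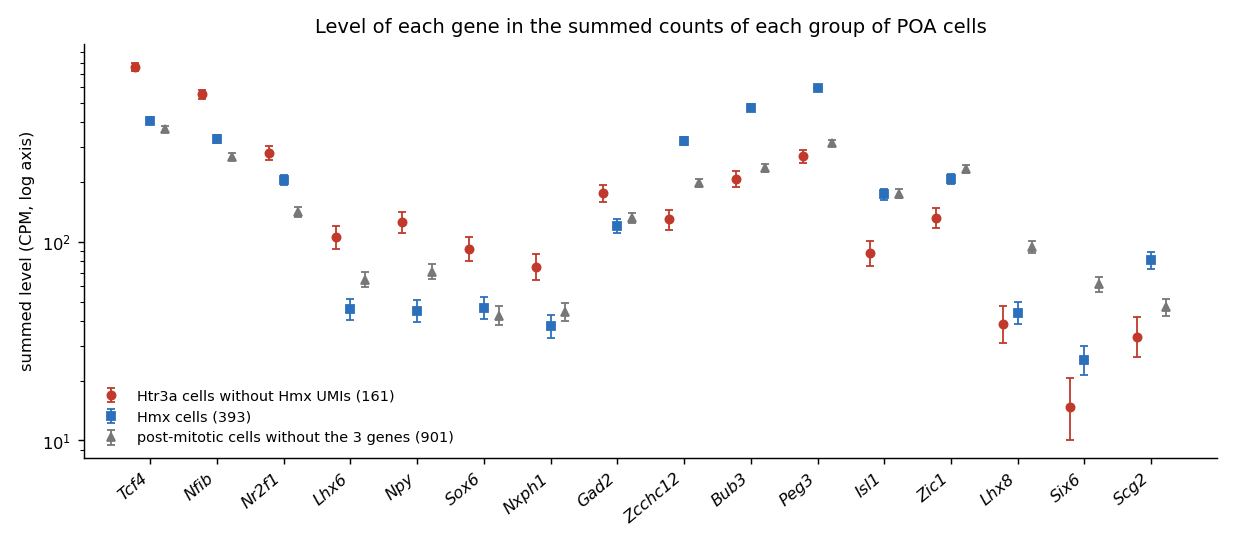
Summed level in CPM, on a log axis, of 16 genes in the 161 Htr3a cells without Hmx UMIs, the 393 Hmx cells and the 901 post-mitotic cells without the 3 genes. Points are group sums and bars exact 95% Poisson intervals, which cover counting error only. Tcf4 lies at 761 CPM in the Htr3a cells against 407 and 369 CPM, and Zcchc12 at 130 CPM against 324 and 198 CPM.

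Of the remaining genes that were 2-fold lower, 5 were hemoglobin genes, which mark red blood cells. Hba-a1 was at 125 CPM in Htr3a cells without Hmx UMIs and 765 CPM in Hmx cells, but 1 Hmx cell held 2419 of its UMIs, or 56.9%. The share of thinned cells with an Hba-a1 UMI was 41.6% and 42.5%. Without cells of 20 or more globin UMIs, its log2 difference was 0.08, so the lower sum rested on a few cells of the other groups. Pmch, the gene of melanin-concentrating hormone, was at 6.22 CPM against 178 CPM, with 576 of its UMIs (58.4%) in 1 Hmx cell. The others, Nrsn2 at -1.08 and RP24-236C17.2 at -1.39, were like Pmch picked out after their values were seen.

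The contrast with Hmx cells depended on which Hmx cells were taken. The 42 Hmx cells that also had 2 or more Htr3a UMIs were deeper, with a median of 17654.5 UMIs, and in several genes they were close to the Htr3a cells without Hmx UMIs. Lhx6 was at 93.6 CPM (75.6 to 115) in them and was seen in 28.6% of the thinned cells. Tcf4 was at 698 CPM (647 to 752) and Nfib at 508 CPM (465 to 555). Against these 42 cells, the log2 differences of the Htr3a cells without Hmx UMIs were 0.15 for Lhx6, 0.06 for Sox6, 0.12 for Tcf4 and 0.12 for Nfib. Those of Npy at 0.79, Peg3 at -1.05, Zcchc12 at -0.80, Bub3 at -0.71 and Isl1 at -0.64 kept more of their size. Intervals for Peg3, 269 CPM (248 to 292) against 567 CPM (521 to 616), did not meet. Only 4 genes were 2-fold apart in this comparison, 2 in each direction of 3690. In these levels, cells with 2 or more Htr3a UMIs were close in Lhx6, Sox6, Tcf4 and Nfib with or without an Hmx UMI. Peg3 and Zcchc12 were higher in the 42 cells with an Hmx UMI. The part of the greater depth of these 42 cells was not tested.

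Compared with all cells without the 3 genes, Htr3a cells without Hmx UMIs had lower levels of progenitor genes, and of 3630 genes 6 were at least 2-fold higher (0.165%) and 23 lower (0.634%). Fabp7, a lipid-binding protein of radial glia, was at 880 CPM (842 to 920) against 2166 CPM. Hes5, a Notch target, was at 92.0 CPM against 238 CPM, and Mfge8, which ventricular progenitors secrete, at 35.1 CPM against 102 CPM. Upward, the log2 differences were 1.09 for St18, a zinc-finger factor of MGE-derived neurons, 1.06 for Npy and 1.06 for Tmem108. By the mean CPM of single cells, 19 (0.528%) and 35 (0.973%) of 3598 genes were that far apart. As both groups held different shares of progenitor-like cells, 901 post-mitotic cells were then taken on their own.

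Among post-mitotic cells, 146 with Htr3a and no Hmx UMI against 901 without the 3 genes, Lgi1, Tcf4, Nfib and Sox6 were again higher. Of 3545 genes, 2 were at least 2-fold higher (0.0564%) and 8 lower (0.226%), and with equal weight per cell 15 (0.426%) and 18 (0.511%) of 3522. Lgi1 had the largest log2 difference, 1.81, with 61.6 CPM (51.3 to 73.4) against 10.5 CPM. Tcf4 was at 1.04, with 771 CPM against 369 CPM (356 to 383), and was seen in 85.6% against 61.9% of the thinned cells. Nfib was at 0.99 and 78.1% against 44.6%, and Sox6 at 0.99 and 32.2% against 13.5%. The differences of Lhx6 at 0.71 and Npy at 0.71 fell short of 2-fold, though their thinned shares of 35.6% and 19.2% compared with 18.6% (16.2 to 21.4) and 8.77% (7.00 to 10.8). Nr2f1, an orphan nuclear receptor of the CGE and caudal cortex, was at 267 CPM against 142 CPM (134 to 150). Epha4, a receptor for ephrins in axon and cell guidance, was at 143 CPM against 74.5 CPM (68.7 to 80.8). Its relative Epha3 was at 47.3 CPM against 28.5 CPM (24.9 to 32.4).

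On the lower side of the post-mitotic comparison stood some regional regulators of other neurons, though the list they come from did not fall as a whole. Of 17 POA and hypothalamic regulators measured, 9 lay above 0, with a median of 0.04. Only 1 was 2-fold lower and 0 higher, beside 0.226% and 0.0564% of all genes. Otp at 0.76 and Nhlh2 at 0.52, both described below, stood on the higher side. Six6, a homeobox gene of the hypothalamus and eye, was at 13.3 CPM against 61.1 CPM (55.8 to 66.7), a log2 difference of -1.61. Lhx8, a LIM homeodomain factor of cholinergic neurons, was at 39.9 CPM against 94.3 CPM (87.7 to 101), a difference of -1.06. Isl1 differed by -0.89, Zic4 by -0.86 and Zic1 by -0.74. Zcchc12 was at 138 CPM against 198 CPM (189 to 208) and Peg3 at 268 CPM against 315 CPM (303 to 327), so these genes were far less apart here than from the Hmx cells. The red blood cell genes were again lower, 4 of 5 by 2-fold, with the few-cell pattern given above, and the same held for Pmch. Chchd10, picked out after its values were seen, completed the 8 genes, with 24.6 CPM against 70.3 CPM.

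By list, the MGE-associated genes were compared first with Hmx cells. Of 7 members measured, 3 (Lhx6, Sst and Etv1) were 2-fold higher and 0 lower, beside 0.196% and 0.364% of all genes, with a median of 0.85. Sst counts here through the 1 cell named above. With equal weight per cell, 4 of 7 (Lhx6, Sox6, Satb1 and Etv1) were 2-fold higher and 0 lower, beside 0.977% and 0.698% of all genes. Against post-mitotic cells without the 3 genes, 0 of 8 were higher and 1, Lhx8, was lower, beside 0.0564% and 0.226% of all genes, with a median of 0.36. With equal weight per cell, 2 of 8 (Sox6 and Etv1) were 2-fold higher there and 1 (Lhx8) lower, with a median of 0.43. The shares of all genes were 0.426% and 0.511%. The CGE-associated genes had medians of 0.42 over 6 members and 0.70 against post-mitotic cells, with none past 2-fold by summed levels in either comparison. With equal weight per cell, 2 of 6 (Nfix and Nfib) were 2-fold higher than in Hmx cells, beside 0.977% of all genes, with a median of 0.68. Against post-mitotic cells, Nr2f1, Nfix and Nfib were 2-fold higher, 3 of 6 beside 0.426% of all genes, with a median of 0.89. Nr2f2, a nuclear receptor widely used as a CGE marker, had 237 CPM (218 to 258) in the Htr3a cells, 261 CPM (248 to 275) in Hmx cells and 231 CPM (220 to 241) in the post-mitotic cells. Prox1, a homeobox factor of CGE interneurons, was seen in 27.3% (20.6 to 34.9) of the thinned Htr3a cells, 16.8% (13.2 to 20.9) of Hmx cells and 15.0% (12.7 to 17.5) of the post-mitotic cells.

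Against Hmx cells, 0.196% of all genes were at least 2-fold higher and 0.364% lower, with a median of 0.01. Beside these, the 12 post-mitotic GABAergic genes measured had a median of 0.14. Of 17 neuronal maturation genes 1, Scg2, was 2-fold lower, with a median of -0.23. Of 16 POA and hypothalamic regulators 1, Zcchc12, was lower, with a median of -0.18. Among 9 neurogliaform-associated genes Npy alone was higher, with a median of 0.25, and among 8 genes of the lateral ganglionic eminence and striatum only Etv1, with a median of 0.07. None of 11 progenitor genes, 14 migration and guidance genes or 5 stress genes was 2-fold apart, with medians of 0.30, 0.08 and -0.08. The cell-cycle list had a median of 0.64 over 11 genes, also with none past 2-fold. Cenpa, a centromere protein, had 142 CPM (127 to 158) in the Htr3a cells and 71.6 CPM (64.7 to 79.0) in the Hmx cells, and Ube2c, a mitotic ubiquitin-conjugating enzyme, 176 CPM (159 to 194) and 91.7 CPM (84.0 to 100.1). After thinning, 22.4% (16.2 to 29.6) and 12.2% (9.14 to 15.9) of the cells had a Cenpa UMI.

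Neurog2, a proneural factor of glutamatergic lineages, was at 196 CPM (178 to 215) in Htr3a cells without Hmx UMIs, 102 CPM (93.9 to 111) in Hmx cells and 97.0 CPM (90.3 to 104) in post-mitotic cells without the 3 genes. For Nhlh2, a bHLH factor of hypothalamic neurons, the levels were 251 CPM (231 to 272), 174 CPM (163 to 185) and 180.5 CPM (171 to 190.1). Of 3 glutamatergic markers measured, 2 lay above 0 against Hmx cells, with a median of 0.65. Besides Neurog2 this was Neurod1, with levels of 61.8 CPM, 35.6 CPM and 46.6 CPM in the same order. The markers that follow were not higher than in Hmx cells. Slc17a6, the vesicular glutamate transporter of hypothalamic neurons, was at 52.9 CPM (43.8 to 63.3), 58.5 CPM (52.3 to 65.2) and 58.4 CPM (53.2 to 64.0), and Neurod2 at 16.9 CPM, 20.7 CPM and 15.6 CPM. The part of leftover glutamatergic cells in these levels was not tested.

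When cells without an Hmx UMI were ordered by their Htr3a UMIs, Lhx6 was seen in 14.4% to 19.6% of thinned cells at none, 1 or 2 UMIs and in 41.8% and 42.0% above. Nxph1 behaved alike, with 10.7% at 2 UMIs and 34.5% and 32.0% above, and Gad1 went from 19.6% to 25.5% and 42.0%. The shares of Neurog2 and Nhlh2 were highest in the members with 2 UMIs. Neurog2 was seen in 37.5% of these, in 21.8% at 3 to 5 and in 8.00% at over 5. For Nhlh2 the shares were 46.4%, 36.4% and 20.0%. The cells just inside the limit, at 2 UMIs, thus had an Lhx6 share like that of cells with 1 UMI. The median totals of the 3 member classes were 10198, 7834 and 9468 UMIs, so the class with 2 UMIs, where Neurog2 and Nhlh2 had their highest shares, was also the deepest. The part of depth in these shares was not tested.

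**Figure D2:**
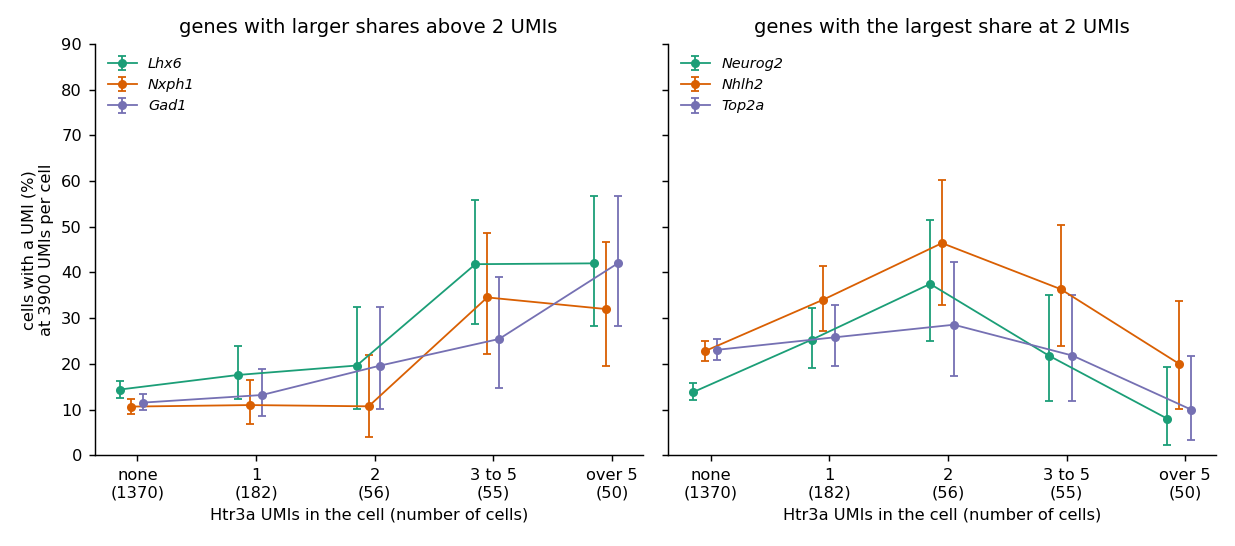
Percentage of cells with a UMI after thinning to 3900 UMIs, by the number of Htr3a UMIs in POA cells without an Hmx UMI (none, 1370 cells; 1, 182 cells; 2, 56 cells; 3 to 5, 55 cells; over 5, 50 cells), with exact 95% Clopper-Pearson intervals for counting error. On the left Lhx6 goes from 14.4% to 42.0%. On the right Neurog2 and Nhlh2 peak in cells with 2 Htr3a UMIs at 37.5% and 46.4% and are at 8.00% and 20.0% above 5.

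Single cells were then read for pairs of these genes. Among the 161 cells after thinning, 26 (16.1%) had both Lhx6 and Sox6. Sox6 was seen in 47.3% of the cells with an Lhx6 UMI and in 24.5% of the others. Nxph1 was seen in 40.0% and 17.9%. Nhlh2 and Neurog2 shared 25 cells, with Neurog2 in 44.6% of the cells with Nhlh2 and 11.4% of the others. In 5 cells there were UMIs of both Lhx6 and Neurog2, with Neurog2 in 9.09% of the cells with Lhx6 and 30.2% of those without. Gad2 and Neurog2 shared 10 cells, at 13.5% and 31.0%, and Gad2 and Nhlh2 17 cells (10.6%), at 23.0% and 44.8%. At the deposited depth cells with both were more frequent, with 25 for Lhx6 and Neurog2 (15.5%), 37 for Gad2 and Neurog2 (23.0%) and 57 for Gad2 and Nhlh2 (35.4%). All these shares come from the same 161 cells and from low counts, and describe this library.

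The contrast was larger outside the deepest cells. In the 112 Htr3a cells at up to 15148 UMIs, Lhx6 was at 163 CPM (137 to 193), and in the 49 cells above it was at 69.7 CPM. Hmx cells at up to 15148 UMIs were at 38.4 CPM and cells without the 3 genes at 52.7 CPM. With deep cells left out of both groups, the log2 difference from Hmx cells was 2.09 for Npy, 1.84 for Lhx6, 1.64 for Tcf4, -2.05 for Zcchc12 and -1.92 for Peg3. In the other direction, Otp, a homeobox factor of neuroendocrine hypothalamic neurons, was at 23.3 CPM in the 112 shallower cells and 116 CPM in the 49 deep ones. In Hmx cells the same split gave 29.3 CPM and 99.9 CPM and in cells without the 3 genes 22.9 CPM and 81.1 CPM. A gap at Otp between shallow and deep cells thus ran through all 3 groups. Neurog2 was at 203 CPM and 192 CPM in the shallower and deep Htr3a cells, but its thinned shares were 17.9% (11.3 to 26.2) and 34.7% (21.7 to 49.6). Those of Nhlh2 were 26.8% and 53.1%, and 32.1% and 61.2% had a UMI of the glutamatergic list. The part of the deep cells in the shares of these genes was not tested.

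**Figure D3:**
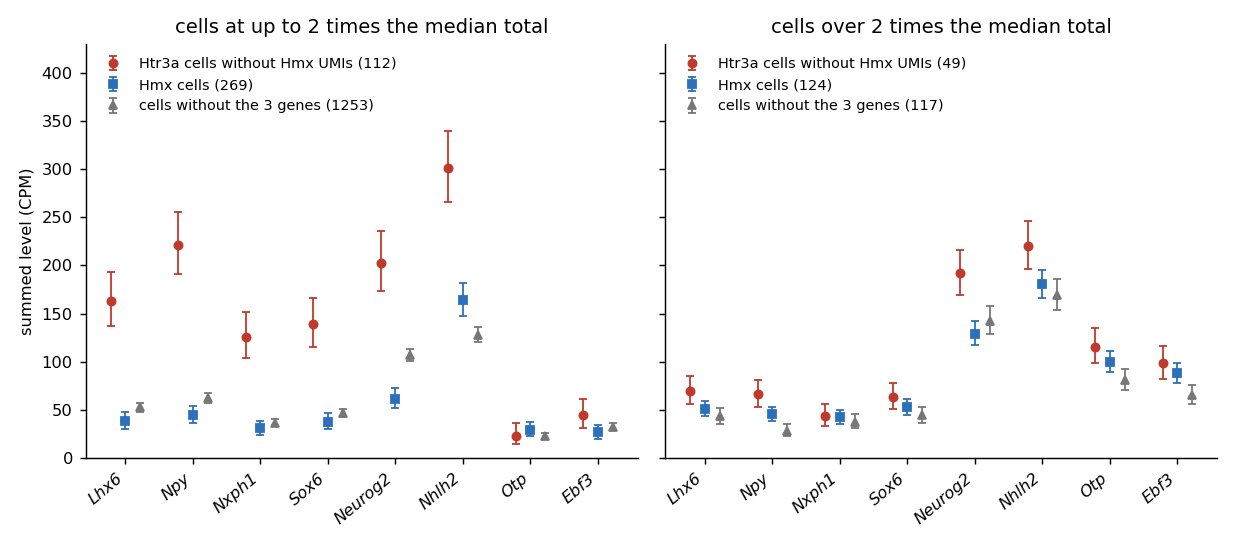
Summed level in CPM of 8 genes in cells at up to 2 times the library median total and in cells above it, for the Htr3a cells without Hmx UMIs (112 and 49 cells), the Hmx cells (269 and 124) and the cells without the 3 genes (1253 and 117). Bars are exact 95% Poisson intervals, for counting error only. Lhx6 is at 163 and 69.7 CPM in the Htr3a cells, and Otp is higher in the deep cells of each group, with 116 against 23.3 CPM in the Htr3a cells.

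The same rule applied to the CGE library found 811 of 4115 cells (19.7%), and 739 post-mitotic ones were compared with 1481 post-mitotic cells without the 3 genes. Of 3493 genes, 6 were at least 2-fold higher (0.172%) and 5 lower (0.143%), and with equal weight per cell 7 in each direction (0.201%) of 3477. Nfib was at 755 CPM against 352 CPM, a log2 difference of 1.08, and Tcf4 at 1345 CPM against 704 CPM, at 0.92. Both were thus higher with Htr3a in each library. Nxph1 at 0.87, Satb1 at 0.60, Sox6 at 0.42 and Lhx6 at 0.39 also lay above 0, while Npy at 0.03 and Epha4 at -0.09 did not separate the CGE groups. The 11 MGE-associated genes measured in the CGE had a median of 0.42, beside 0.36 in the POA, with 0 past 2-fold. In the post-mitotic Htr3a cells of the CGE, Lhx6 was at 125 CPM, Sox6 at 154, Satb1 at 104, Nxph1 at 132 and Npy at 197. The same genes in the POA were at 112, 94.6, 90.2, 75.9 and 123 CPM. Isl1 was lower in both libraries, at 24.3 CPM against 94.6 CPM in the CGE (log2 -1.61). The other genes 2-fold lower in the CGE included the striatal factors Ebf1, at 120 CPM against 345 CPM, and Foxp1, at 60.7 CPM against 164 CPM.

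Of 44 genes with a log2 difference of 0.5 or more upward in the post-mitotic POA comparison, 36 were above 0 in the CGE and 17 at 0.5 or more. Of 26 genes at -0.5 or less, 21 were below 0 in the CGE and 3 at -0.5 or less. Over all 3188 genes measured in both libraries 52.1% were above 0 in the CGE, and the correlation of the 2 sets of differences across genes was 0.347. Genes are not independent replicates, so this is a description. Lgi1 had the largest upward difference in both, 1.81 in the POA and 1.34 in the CGE, where it was at 68.1 CPM against 20.8 CPM. Whether the differences of single genes are unequal between the regions was not tested.

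**Figure D4:**
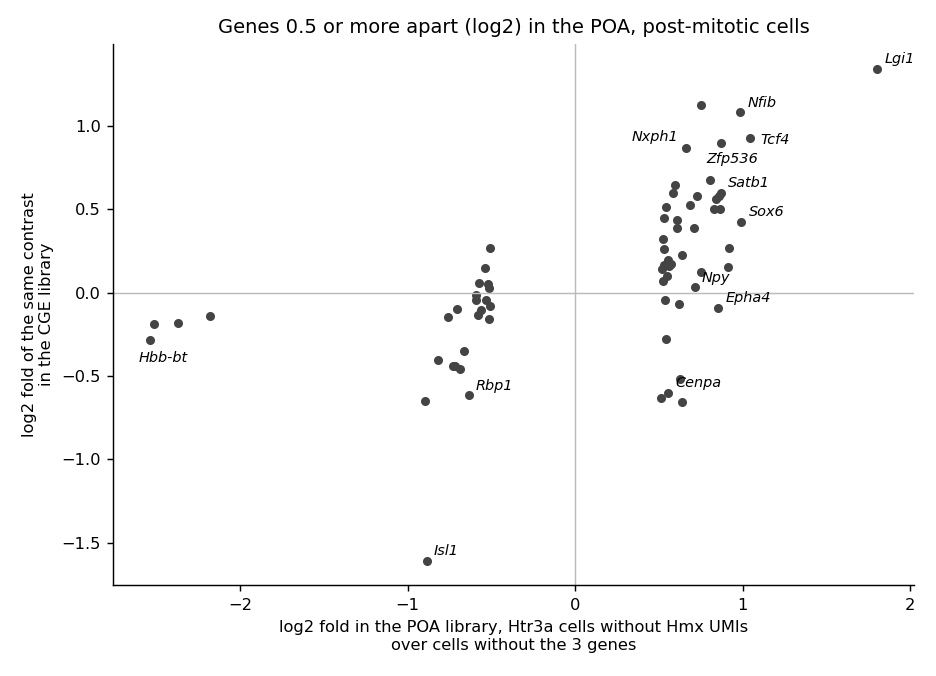
Log2 difference between post-mitotic cells with 2 or more Htr3a UMIs and no Hmx UMI and post-mitotic cells without the 3 genes, in the POA (x axis) and the CGE (y axis), for the 70 genes that were 0.5 or more apart in the POA. Each point is 1 gene; of the 44 on the right 36 lie above 0 in the CGE, and of the 26 on the left 21 lie below 0.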

How the data were processed

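The deposited tables hold a UMI count for each gene in each cell. The authors mapped the reads to mm10 with Cell Ranger, and then left out cells under their limits on genes and mitochondrial reads and clusters of non-GABAergic cells. Every value column was mapped to a sample (0 unused). No cell was left out here; the lowest gene number of a POA cell was 1564 and the highest mitochondrial share 14.95%. No doublet caller was run. Counts were summed per group, scaled to CPM and compared as log2 after adding 10 CPM, over genes at 50 CPM or more in either group. Poisson and Clopper-Pearson intervals were at 95%. For shares, each cell was thinned to 3900 UMIs (seed 20). The cells and the 25 gene lists were chosen with earlier results of these data known. Genes were named by rule, namely the 8 largest differences per direction and comparison among genes at 100 CPM and in 10% of cells of the higher group, from each list its first 2 and up to 4 per direction, and 7 genes named by the study. Medians and counts of lists are given beside those of all genes, with no set test. Alternatives changed the added CPM, level filter, measure, member limits, depth and cell states; leaving out cells over 2 times the median total or with 20 or more globin UMIs was added after the data were seen. Steps were tested on simulated data. Tools were Python 3.11.15, numpy 2.4.6, pandas 2.3.3, scipy 1.17.1 and matplotlib 3.10.9; gene positions came from GENCODE M21. Some genes are not reported here.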

Additional observations from a re-analysis of the deposited data

Results flagged for a closer look

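Post-mitotic Htr3a cells without Hmx UMIs were compared with post-mitotic cells without the 3 genes in both libraries. Of 3188 genes measured in both, 4 were 0.5 or more higher (log2) in the POA and 0.5 or more lower in the CGE. Cenpf, a kinetochore protein, was at 0.51 in the POA and -0.63 in the CGE. Cenpa, the centromeric histone, was at 0.56 and -0.60. The cell-cycle list as a whole had a median of 0.31 over 10 measured genes in the POA and -0.66 over 21 in the CGE. The median of all genes was 0.01 in each. Lockd, a non-coding RNA next to a cell-cycle inhibitor gene, was at 0.64 and -0.65, and Pou3f2, a POU-domain factor of neural precursors, at 0.62 and -0.52. Lockd and Pou3f2 were picked out after their values were seen. With 1 library per region, the difference between regions was not tested for any of them.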

How the results depend on the processing

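No paired analysis was possible because each region was 1 library and no result came from a test. The number of genes 2-fold apart moved by over 1.5 times under many settings. Against Hmx cells it was 20, and became 6 with 100 CPM added, 31 without a level filter, 9 at 200 CPM or more, 60 by the mean CPM of single cells, 69 from thinned counts, 43 with members chosen from thinned counts, 52 without the top 5% of cells by UMIs, 48 within the depth band of the Htr3a cells (percentiles 10 to 90), 4 against Hmx cells with 2 or more Htr3a UMIs and 99 without cells over 2 times the median total. Against all cells without the 3 genes it was 29, and the settings with a moved count gave 6 (100 CPM added), 44 (no filter), 9 (200 CPM), 54 (mean CPM), 61 (thinned), 75 (members from thinned counts), 10 (Htr3a at 1 UMI or more) and 67 (2 times the median). Among post-mitotic cells it was 10, and became 18 with 1 CPM added, 4 with 100 CPM, 19 without a filter, 5 at 200 CPM, 33 by mean CPM, 36 thinned, 33 with members from thinned counts, 6 and 25 with Htr3a at 1 and 3 UMIs or more, 31 without the top 5%, 31 in the depth band, 17 with post-mitotic genes at 3 times the progenitor genes and 53 without cells over 2 times the median. In the CGE it was 11, and became 17 with 1 CPM added, 1 with 100 CPM, 4 at 200 CPM, 22 thinned, 69 with members from thinned counts, 4 and 22 with Htr3a at 1 and 3 UMIs or more, 23 without the top 5%, 31 in the depth band, 37 without cells over 2 times the median, and 454 when cells with a marker of another type were left out, which left 26 against 58 cells. That last setting could not be run in the POA, where 0 Htr3a cells had no such marker. The cause of these changes in the counts was not tested for any setting.

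Against Hmx cells, the log2 difference of Npy ranged from 0.64 to 2.09 over the alternatives, that of Lhx6 from 0.15 to 1.84, Zcchc12 from -2.05 to -0.80, Bub3 from -1.52 to -0.71 and Peg3 from -1.92 to -0.92. Among the genes named by rule that were at least 2-fold apart from Hmx cells, only hemoglobin genes changed sign. Some smaller differences changed sign too. With equal weight per cell, that of Otp went from 0.15 to -0.07 and that of Nefl from 0.13 to -0.29. Hba-a1 was at 0.16 against Hmx cells with 2 or more Htr3a UMIs, 0.000718 without cells over 2 times the median and 0.0826 without cells of 20 or more globin UMIs. Hba-a2 was at 0.29 under the first, Hbb-bt at 0.0504 under the second, and Hbb-y at 0.19, 0.0698 and 0.0161 under the 3 settings in that order. At 2249375 UMIs for 161 cells, 3 UMIs are the least that was read as a level, and the absence of an Hmx UMI was not readable as absence of the gene in a cell.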
